A study of Mus musculus with 3 samples.

Results

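The S100 proteins are small calcium-binding proteins of the EF-hand type, and 9 mouse genes of the family were examined in astrocytes made from embryonic stem cells: S100b, S100a1, S100a4, S100a6, S100a8, S100a9, S100a11, S100a13 and S100a16. A gene was measured where a probe set on the array was annotated to that gene and to no other, and it took the value of its probe set with the highest mean. By this rule 8 of the 9 genes were measured, with 11 probe sets, out of 18193 genes and 34945 probe sets in all. The exception was S100a11, whose 1 probe set is also annotated to S100a11-ps and Gm12854 and was therefore not used for it.

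Most S100 proteins work as dimers. Calcium binding exposes a hydrophobic surface through which the dimer grips a target protein, so that a rise in calcium is passed on to the cytoskeleton, to membranes or to an enzyme, and some family members are also released from cells and signal through surface receptors. In the brain S100b is known above all from astrocytes and is used as a marker of them, whereas S100a8 and S100a9 are known as the paired calprotectin subunits of neutrophils and monocytes.

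The study held 1 group of 3 samples, labelled wild type. Mouse embryonic stem cells had formed embryoid bodies over 4 days and had then been selected in ITSFn medium for 5 to 7 days. The resulting neural precursors were kept in FGF2 and EGF2, as the labels spell them, to 18 passages after embryoid body formation, and were made into astrocytes by removing both factors and culturing them in 5% fetal bovine serum for 5 days. Biotin-labelled material from total RNA was read on Affymetrix arrays (Mouse Genome 430 2.0), which carry 1 colour. Whether the 3 samples were separate cultures is not stated in the labels. The p-values thus measure the spread among these arrays, possibly only a technical one, and the number of arrays limits the precision. A lower signal in such bulk RNA cannot tell fewer cells that make a transcript from less of it in each cell.

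With no second condition, the question that the design allows is which S100 transcripts stood above background. Background was taken from 78 olfactory, vomeronasal, trace-amine and taste receptor genes, and each array had as its limit the 95th percentile of these log2 signals, which was 3.99, 4.10 and 4.07 on replicates 1, 2 and 3. Levels are mean log2 signal ± SD over the 3 arrays, and a distance is the mean over arrays of a gene's log2 signal less the array's limit, given with its standard error (SE) and 95% interval. The limits were taken as fixed, so the SE, interval and p-value leave out the uncertainty of the limits themselves. A gene passed if its distance exceeded 0 at a Benjamini-Hochberg adjusted p below 0.05 over all genes tested (one-sided moderated test, limma). Not passing is not the same as absence of the transcript, and signals of different genes are not ranked against each other, because probe sets differ in brightness. Of the 18115 genes tested, 10569 passed (58.3%). Markers of the labelled cell type were above background, all 12 on the list passing, among them Gfap at 12.63 ± 0.12, Aqp4 at 11.87 ± 0.10 and Slc1a3 at 10.95 ± 0.25, on 4 of 6 probe sets. With each gene at the median of its probe sets, 10 of the 12 markers passed.

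The family split. S100b, S100a4, S100a13 and S100a16 were above background on all 3 arrays and passed, while S100a1, S100a6, S100a8 and S100a9 did not. These 4 of 8 measured genes (50.0%) compare with 58.3% of all genes tested, so the share that passed lay near the background share. The median distance was 1.01 log2 units for the 8 genes and 1.76 for all genes tested. An unadjusted p below 0.05 gave the same count of 4 (limma), and by probe set 6 of the 11 passed, against 52.3% of all probe sets tested.

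Sequences upstream of the transcription start are shown for members on either side of the test. The RefSeq promoter table (GRCm38.p6) held windows for all 9 genes, 10 in number because S100a16 has 2, and the 250 bases before the start were read from each. The first group of printed windows holds S100b, the astrocyte marker, with S100a4, which passed, and S100a8, which did not. Capitals mark matches, on either strand, to the core of a TATA box (TATAAA), the core of the CCAAT box (those 5 letters), an AP-1 site (TGANTCA), a STAT site (TTCNNNGAA) or a GC box (GGGCGG).
S100b (chr10:76253586-76253835, + strand): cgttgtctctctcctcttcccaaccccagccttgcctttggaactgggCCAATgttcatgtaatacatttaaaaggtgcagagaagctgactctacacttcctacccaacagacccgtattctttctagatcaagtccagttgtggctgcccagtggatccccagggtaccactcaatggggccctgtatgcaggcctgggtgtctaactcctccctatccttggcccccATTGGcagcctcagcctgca
S100a4 (chr3:90603520-90603769, + strand): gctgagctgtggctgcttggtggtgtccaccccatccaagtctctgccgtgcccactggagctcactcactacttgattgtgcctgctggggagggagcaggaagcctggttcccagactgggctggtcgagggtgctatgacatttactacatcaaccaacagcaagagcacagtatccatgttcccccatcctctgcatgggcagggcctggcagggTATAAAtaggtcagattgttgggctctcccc
S100a8 (chr3:90668821-90669070, + strand): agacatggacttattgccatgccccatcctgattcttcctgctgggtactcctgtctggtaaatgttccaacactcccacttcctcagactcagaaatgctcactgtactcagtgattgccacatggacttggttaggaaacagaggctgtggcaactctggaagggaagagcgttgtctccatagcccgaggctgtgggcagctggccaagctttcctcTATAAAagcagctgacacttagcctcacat
The S100a4 and S100a8 windows both held TATAAA, starting at -31 and -30 from the start site. It was in 2 of the 10 S100 windows and in 12.4% of all 32851 windows of the same length. The S100b window had no TATAAA but held CCAAT once on each strand, a motif found in 33.8% of all windows and in 2 of the 10. TGANTCA was in 2 of the 10 windows (6.75% of all), GGGCGG was in 3 (32.7% of all), and TTCNNNGAA was in 0 (7.02% of all). No match overlapped another in the 10 windows, and a match describes letters in a window and not a working site.

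The second pair of windows belongs to S100a13 and S100a1, which are neighbours read from opposite strands. Their windows share 104 bases, shown in capitals, each written 5′ to 3′ on the strand of its own gene.
S100a13 (chr3:90514185-90514434, + strand): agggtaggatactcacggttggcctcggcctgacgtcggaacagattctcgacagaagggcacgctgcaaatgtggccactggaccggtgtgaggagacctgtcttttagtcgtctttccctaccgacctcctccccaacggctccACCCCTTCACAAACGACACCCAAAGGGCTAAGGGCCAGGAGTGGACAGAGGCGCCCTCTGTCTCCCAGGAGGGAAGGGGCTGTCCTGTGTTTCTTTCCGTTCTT
S100a1 (chr3:90514331-90514580, - strand): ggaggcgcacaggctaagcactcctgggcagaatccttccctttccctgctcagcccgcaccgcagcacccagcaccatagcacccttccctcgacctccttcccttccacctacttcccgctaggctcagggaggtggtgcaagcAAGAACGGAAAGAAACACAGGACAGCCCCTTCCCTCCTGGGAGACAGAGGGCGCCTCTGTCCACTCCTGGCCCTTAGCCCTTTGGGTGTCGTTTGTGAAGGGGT
These windows held 13 and 8 CpG pairs, against 2 in each of the S100b, S100a4 and S100a8 windows and a median of 6 over all windows. The signals of this pair fell on different sides of the test, with S100a13 above background and S100a1 not, as the values that follow show.

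S100b was above background on both of its probe sets. Probe set 1434342_at, which stands for the gene, gave signals of 672, 749 and 870 on replicates 1, 2 and 3, which are 9.39, 9.55 and 9.76 on the log2 scale. All 3 arrays lay well clear of the limit, and none of them stood apart from the others. The mean was 9.57 ± 0.19 and the distance 5.52 log2 units (SE 0.14, 95% interval 5.12 to 5.91, adjusted p = 3.88e-05, limma), or a signal 45.8 times that of the limit. The second probe set, 1419383_at, lay at 8.94, 9.05 and 9.38 and was likewise lowest on replicate 1 and highest on replicate 3.

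S100a16, a widely expressed member of the family, also passed on both of its probe sets. Probe set 1425560_a_at gave log2 signals of 9.76, 9.81 and 9.83, a mean of 9.80 ± 0.04 and a distance of 5.74 log2 units (SE 0.12, 95% interval 5.39 to 6.09, adjusted p = 3.85e-05, limma). The arrays differed by 0.07 log2 units for this gene before any shift between arrays was taken off. Its SD of 0.04 compares with a median SD of 0.20 over the 1189 genes within 0.5 log2 units of its level. Probe set 1447676_x_at, of a kind that can bind several transcripts, spread more widely at 9.05, 9.38 and 9.72.

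S100a4, also called metastasin or fibroblast-specific protein, binds the heavy chain of non-muscle myosin. Its only probe set, 1424542_at, gave signals of 495, 528 and 544, or 8.95, 9.04 and 9.09 on the log2 scale. The 3 values lay close together and far above the limit, with a mean of 9.03 ± 0.07 and a distance of 4.98 log2 units (SE 0.12, 95% interval 4.63 to 5.33, adjusted p = 3.88e-05, limma). Because this gene is also used as a fibroblast marker, the fibroblast and mesenchymal list is given beside it. Of its 12 genes 3 passed (against 58.3% of all genes tested), Acta2 at 9.83 ± 0.21, on 1 of 3 probe sets, Tagln at 7.71 ± 0.14 and Twist1 at 7.58 ± 0.22. Among the genes of the list that did not pass were the matrix genes Col1a1, Col1a2, Col3a1, Dcn and Lum, at 2.85, 3.72, 2.59, 2.77 and 0.77. The part of such cells in the S100a4 signal was not tested.

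S100a13 takes part in the release of FGF1 and interleukin 1 alpha, proteins that leave cells without a signal peptide. Probe set 1418704_at gave signals of 83.3, 108 and 99.3, or log2 signals of 6.38, 6.76 and 6.63. The mean was 6.59 ± 0.19 and the distance 2.54 log2 units (SE 0.13, 95% interval 2.15 to 2.93, adjusted p = 0.000143, limma). Every array was above its limit, and the lowest of them, replicate 1, was at 5.25 times it.

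**Figure D1:**
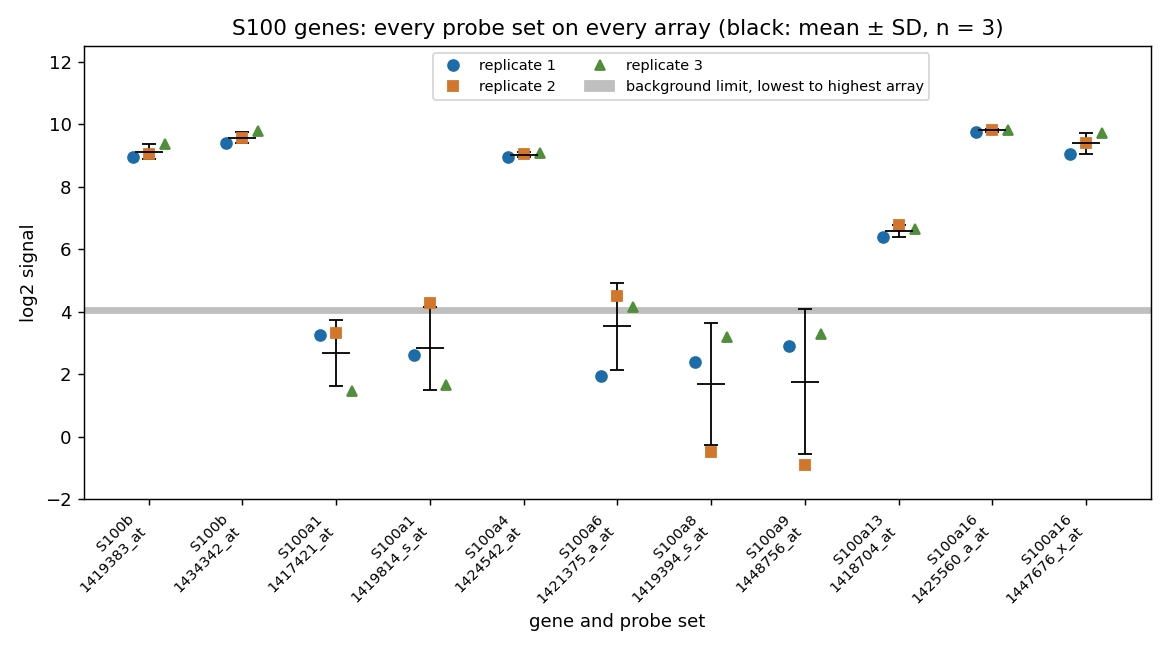
Log2 signal of all 11 probe sets of the S100 genes (horizontal axis) on the 3 arrays, with the mean and SD in black and the range of the background limits over arrays in grey. The probe sets of S100b, S100a4, S100a13 and S100a16 sit above the limit with little spread, while those of S100a1, S100a6, S100a8 and S100a9 scatter below or around it.

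S100a8 and S100a9, the calprotectin subunits, were below the limit on every array. S100a8 lay at 2.39, -0.50 and 3.19 on replicates 1, 2 and 3, and S100a9 at 2.89, -0.89 and 3.30. Both genes had their lowest signal on replicate 2, where the linear signals were 0.707 and 0.541. The means were 1.69 ± 1.94 and 1.77 ± 2.31, with distances of -2.36 log2 units (95% interval -4.87 to 0.15) and -2.29 (95% interval -5.26 to 0.69). Without replicate 2 the distances were -1.24 and -0.94, still below the limit. The probe set of S100a8, 1419394_s_at, is of a kind that can bind several transcripts, and S100a8 has no other.

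Genes of microglia and myeloid cells were mostly not above background either. Of 14 measured, 2 passed (against 58.3% of all genes tested), the macrophage colony-stimulating factor receptor Csf1r at 5.34 ± 0.18, on 1 of 3 probe sets, and the lysozyme gene Lyz2 at 6.23 ± 0.33. The pan-leukocyte gene Ptprc and the integrin gene Itgam were at 1.56 ± 2.18 and 1.98 ± 1.19, and Aif1, a microglial marker, was at 1.79 ± 1.62. The neutrophil granule genes Mpo, Elane, Ngp, Camp and Ltf, with means from 1.92 to 3.64, did not pass.

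S100a6, or calcyclin, lay on both sides of the limit and did not pass. Its single probe set, 1421375_a_at, gave log2 signals of 1.94, 4.49 and 4.16, below the limit on replicate 1 and above it on replicates 2 and 3. The mean was 3.53 ± 1.39 and the distance -0.52 log2 units (95% interval -2.24 to 1.19). One array thus decides its side of the limit: without replicate 1 the distance was 0.24 log2 units, which did not pass either (adjusted p = 0.279, limma). Genes within 0.5 log2 units of its level had a median SD of 0.55 (1947 genes), less than the spread of S100a6.

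S100a1, best known from heart and skeletal muscle, where it acts on calcium release and reuptake, was not above background on either of its probe sets. Probe set 1419814_s_at, of a kind that can bind several transcripts, gave 2.61, 4.27 and 1.64, above the limit on replicate 2 only. The other, 1417421_at, gave 3.24, 3.33 and 1.46, below the limit throughout. The mean of 1419814_s_at, which stands for the gene, was 2.84 ± 1.33 and its distance -1.21 log2 units (95% interval -2.90 to 0.47). The median SD of genes of like level was 0.88 (1907 genes).

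The interval of each of these 4 genes ran past 0. Across the arrays, the 4 genes that passed moved little. After the median shift of all passing genes was taken off each array, their range over the arrays was 0.07 log2 units for S100b, 0.21 for S100a4, and 0.27 for both S100a13 and S100a16, against a median range of 0.35 over all genes that passed. The differences of S100b between the arrays thus lay close to the median shifts, which were -0.18, 0.02 and 0.16 on replicates 1, 2 and 3. The ranges of the 4 genes that did not pass were 2.35 for S100a6, 2.77 for S100a1, 3.55 for S100a8 and 4.04 for S100a9. A small spread helps a gene to pass, so this contrast was partly fixed by the test. Over all genes tested, the median SD was 0.24 for those that passed and 0.83 for those that did not. For genes within 0.5 log2 units of S100a8 or of S100a9 it was 1.37.

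The other S100 genes on the array were mostly not above background. Of 6 measured, 1 passed (against 58.3% of all genes tested), and this was S100a10, or p11, the partner of annexin A2, which does not need calcium to bind. S100a10 lay at 11.02, 10.95 and 10.67 with a mean of 10.88 ± 0.19 and a distance of 6.83 log2 units (SE 0.15, adjusted p = 3.85e-05, limma), and all 3 of its probe sets passed. S100a3, S100a5, S100a14, S100g and S100a7l2 did not pass. S100a3, of the hair cuticle, was at 3.77 ± 0.44, S100a5 at 3.08 ± 1.12, the epithelial gene S100a14 at 2.78 ± 0.85, S100g, the calbindin of the gut that carries calcium, at 0.84 ± 1.47 and S100a7l2 at -0.93 ± 0.57. Genes for the fused-type S100 proteins of hair and the outer skin were not above background in any of 5 cases, against 58.3% of all genes tested that passed (0 by limma, and 0 at an unadjusted p below 0.05). Trichohyalin (Tchh) and its relative Tchhl1 were at 2.11 ± 0.32 and 2.49 ± 1.07, filaggrin (Flg) at 0.13 ± 1.50, hornerin (Hrnr) at 0.46 ± 1.39 and repetin (Rptn) at 3.79 ± 0.27.

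In the RefSeq annotation (GRCm38.p6) 15 of 18 S100 coding genes of the mouse share 1 chromosome. Genes that passed and genes that did not were interleaved along it. From one end the measured genes are S100a1, S100a13, S100a14, S100a16, S100a3, S100a4, S100a5, S100a6, S100a8, S100a9, S100a7l2 and S100a10, and of these 12 the ones that passed were S100a13, S100a16, S100a4 and S100a10. S100a10 stands apart with S100a11, with 54 other coding genes between them and S100a7l2. S100b is on another chromosome.

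**Figure D2:**
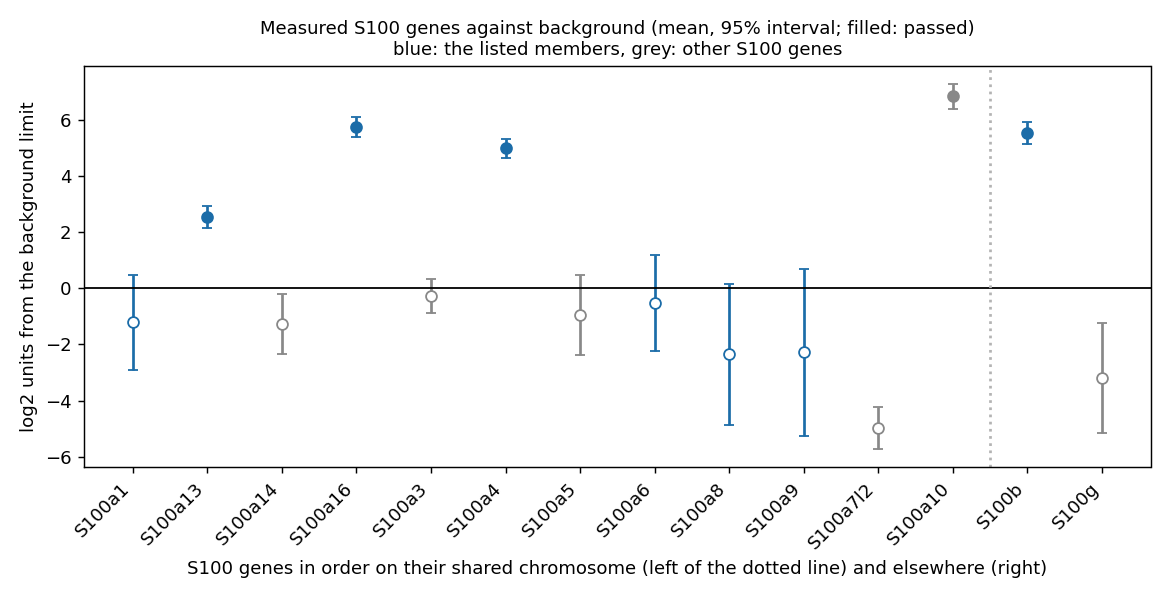
Distance of the 14 measured S100 genes from the background limit in log2 units (vertical axis; mean and 95% interval), in chromosomal order, with S100b and S100g, which lie elsewhere, at the right. Filled points mark the 5 genes that passed, and each passing gene on the shared chromosome other than S100a10 has a measured neighbour that did not pass.

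Proteins that S100 dimers bind or signal through were for the most part above background, with 20 of 24 measured genes passing (against 58.3% of all genes tested) and a median distance of 5.26 log2 units. These 24 genes have 73 probe sets, against 34945 for all 18193 genes, and a gene takes its brightest one. Those shares are therefore not like for like. With each gene at the median of its probe sets, 15 of the 24 passed, and 9157 of all 18115 genes tested. The cell surface receptors were not among the genes that passed. Ager, which encodes the receptor RAGE for released S100b and S100a8/a9, was at 0.50, 0.59 and 5.46, so that it lay above the limit on replicate 3 only, with a mean of 2.18 ± 2.84, and neither of its probe sets passed. Tlr4, a receptor for calprotectin, was at 2.79 ± 1.24, with 0 of 4 probe sets passing.

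Annexins, which are binding partners of S100 proteins, all passed where measured. Anxa2, the partner of S100a10, was at 11.01 ± 0.03, on 1 of 3 probe sets, Anxa5 at 10.96 ± 0.04, Anxa6 at 9.33 ± 0.38 and Anxa1, a partner of S100a11, at 7.80 ± 0.07, on 1 of 2. Ahnak, the giant scaffold protein that binds the complex of S100a10 and annexin A2, was at 10.46 ± 0.29.

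Cytoskeletal partners passed as well. Myh9, the myosin heavy chain bound by S100a4, was at 11.07 ± 0.28, and the scaffold Iqgap1, a target of S100b, at 9.37 ± 0.24, on 3 of 7 probe sets. The actin-capping subunits Capza1, Capza2 and Capzb, of which the alpha chains carry a known S100b-binding stretch, were at 10.34 ± 0.02, 11.25 ± 0.19 and 11.68 ± 0.21. Tagln2, an actin-binding protein, was at 7.00 ± 0.19.

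The binding partner and the S100 gene did not always pass together. Cacybp, the calcyclin-binding protein, lay at 10.16, 10.34 and 10.23 on the 3 arrays and passed, as did Sugt1, another binder of calcyclin, at 10.04 ± 0.38, while S100a6, or calcyclin, did not. Atp2a2, the calcium pump that S100a1 acts on, was at 11.71 ± 0.15, and the ryanodine receptor gene Ryr2 was at 2.77 ± 0.89 and did not pass. Of the cargoes of S100a13, Fgf1 passed at 7.80 ± 0.24 and Il1a did not, at 1.49 ± 1.10.

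Kinase, phosphatase and p53 pathway partners completed the list. The kinase gene Stk38, which S100b activates, was at 9.31 ± 0.41, on 1 of 3 probe sets, and the phosphatase gene Ppp5c at 8.64 ± 0.06. Mdm2 and Mdm4, regulators of p53, were at 8.25 ± 0.35 and 7.32 ± 0.52, the latter on 1 of 4 probe sets, and S100pbp, an S100-binding protein, was at 7.56 ± 0.60, on 1 of 2.

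**Figure D3:**
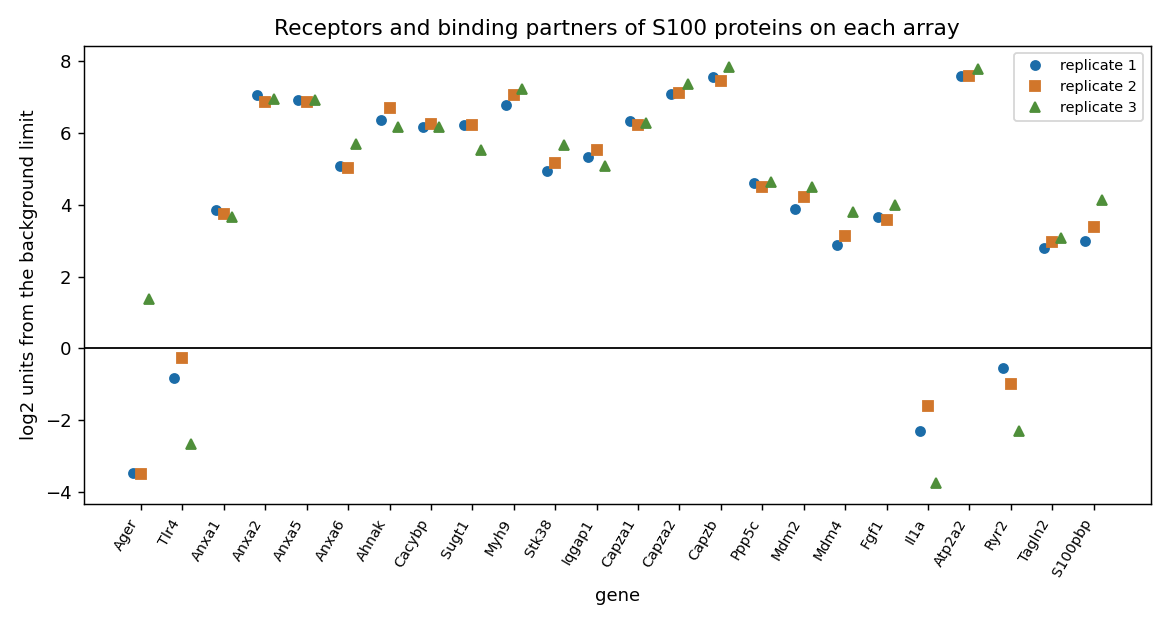
Distance of 24 receptor and partner genes (horizontal axis) from the background limit of each array, in log2 units (vertical axis), with 1 point per array. The receptors Ager and Tlr4 and the genes Il1a and Ryr2 did not pass, with Ager above the limit on replicate 3 alone, and the other 20 genes lie above the line on every array.

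Other calcium binders of the EF-hand type passed in 15 of 22 cases (against 58.3% of all genes tested), with a median distance of 4.08 log2 units. Calbindin (Calb1) and calretinin (Calb2), buffers of neurons, did not pass, with levels of 3.07 ± 0.82 and 1.87 ± 0.47. Hippocalcin (Hpca) did not pass either, at 1.85 ± 1.15. Parvalbumin (Pvalb), a buffer of fast neurons and muscle, passed at 6.28 ± 0.19, as did the neuronal calcium sensor Ncs1 at 7.03 ± 0.43, on 1 of 3 probe sets, and Hpcal1 at 7.56 ± 0.19.

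S100b is not restricted to astrocytes, since ependymal cells and part of the oligodendrocyte lineage also make it, so their markers are given here. Of 9 oligodendrocyte lineage genes 5 passed (55.6%, near the 58.3% of all genes tested), Olig1 at 11.64 ± 0.09, Olig2 at 8.29 ± 0.28, Sox10 at 4.64 ± 0.15, Pdgfra at 5.81 ± 0.08 and Cnp at 11.72 ± 0.20, and Sox10 and Pdgfra did so on 1 of 3 probe sets. The myelin gene Mog, at 1.14 ± 1.84, and the precursor gene Cspg4, at 3.58 ± 0.35, did not pass. The myelin gene Mbp, at 4.55 ± 0.33, lay above the limit on every array but did not pass (adjusted p = 0.0678, limma). Of 8 ependymal genes 5 passed (62.5%, also near that share), Foxj1 at 9.76 ± 0.49, Ccdc153 at 6.21 ± 0.07, Dynlrb2 at 8.30 ± 0.07, Cfap126 at 7.86 ± 0.25 and Rarres2 at 4.85 ± 0.34. Rarres2 did so on 1 of 3 probe sets, and Rsph1 at 3.92 ± 1.50 did not pass. Of 10 neuron markers 6 passed (likewise near the 58.3% of all genes tested), including Map2 at 10.91 ± 0.16, Tubb3 at 5.83 ± 0.65 and Rbfox3 at 6.66 ± 0.30. The others that passed were Syt1 at 7.24 ± 0.12, on 1 of 4 probe sets, Dcx at 5.09 ± 0.32 and Gap43 at 7.11 ± 0.20. Snap25 at 2.02 ± 0.50, Stmn2 at 1.93 ± 0.75 and Nefl at 2.10 ± 0.26 did not pass. Syp at 4.44 ± 0.18 lay above the limit on all 3 arrays but did not pass (adjusted p = 0.0604, limma). The part of such cells in the S100b signal was not tested.

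The calls of the S100 genes were the same under the settings tried. S100b, S100a4, S100a13 and S100a16 passed under all 13 alternatives, and S100a1, S100a6, S100a8 and S100a9 passed under none of those in which they could be tested. S100a13 came closest to losing its call, at 0.93 log2 units (adjusted p = 0.0192, limma) with a limit set from genes of other tissues.

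**Figure D4:**
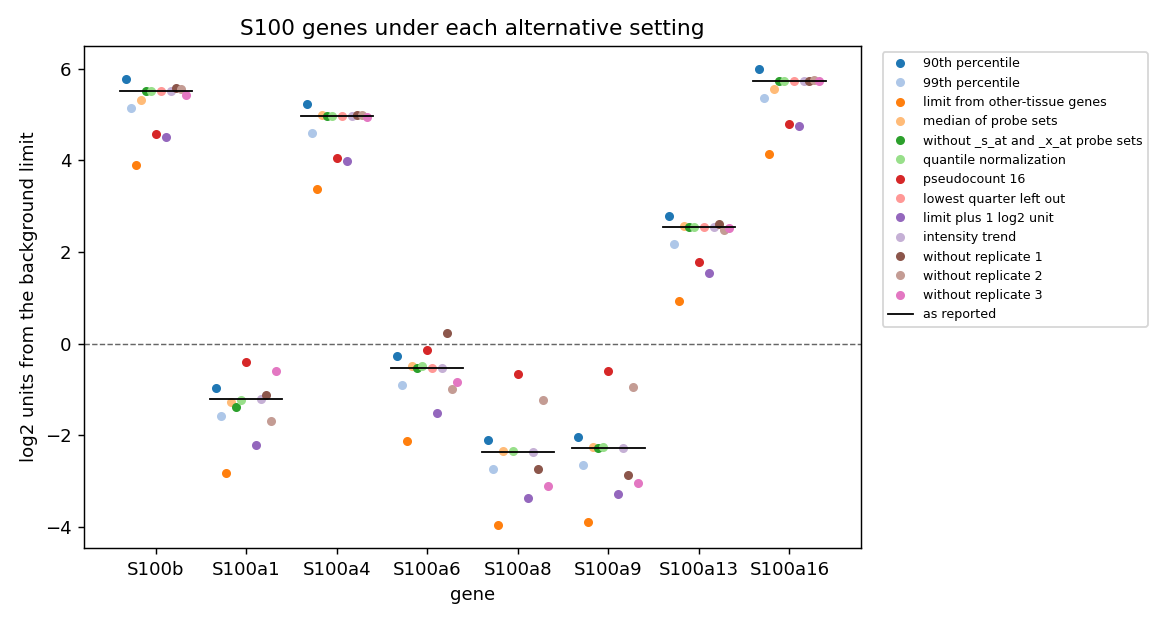
Distance of the 8 measured S100 genes from the background limit in log2 units (vertical axis) under each of 13 alternative settings (coloured points) and as reported (black line). Points of the 4 genes that passed lie above 0, and 1 point of S100a6, without replicate 1, crosses it at 0.24.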

How the data were processed

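The values analysed were linear intensities, 1 for each probe set on each array, as deposited by the authors, who used GCOS 1.4 per the submitters' processing notes. Its algorithm, scaling target and detection calls were not given in the sources used here. Of 45101 probe sets, 64 controls were left out, 34945 had 1 gene in the platform annotation, 932 had several and 9160 had none there. Log2 was taken with no pseudocount. Genes were tested in R 4.3.3 with limma 3.58.1 (one-sample, one-sided, eBayes), in 1 fit over genes and another over probe sets. The procedure was tested on simulated data, with genes placed at set distances below and above the limit. No genes were placed at the limit itself, so the error rate there was not checked. With 3 arrays an exact sign-flip test cannot go below 0.125, so none is given. The median signal was 20.02, 23.3 and 19.4 on replicates 1, 2 and 3. The S100 genes and the 11 lists were chosen with earlier results of these data known. Named are all S100 genes and partners measured, the first 6 other EF-hand genes, the first 3 of each marker list and any 5 or fewer that passed. Dcn, Lum, Mpo, Elane, Ngp, Camp, Ltf, Mog, Cspg4, Mbp, Snap25, Syt1, Stmn2, Nefl, Dcx, Gap43 and Syp were named after their values were seen. The alternatives changed the limit, the probe set rule, normalization, pseudocount, filter, variance model and replicates.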

Additional observations from a re-analysis of the deposited data

Results flagged for a closer look

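A probe set that no comparison uses carried a strong signal. It is annotated to S100a11, S100a11-ps and Gm12854, and lay at 12.01, 11.97 and 11.98 on replicates 1, 2 and 3, a mean log2 signal of 11.99, far above the probe set limit of 4.05. Its signal cannot be assigned to any of these genes, so S100a11 has no value here.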

How the results depend on the processing

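Under all 13 alternatives 4 S100 genes passed, and under the 11 that apply to single probe sets 6 of the 11 probe sets did. All genes above background ranged from 8176 (limit from other-tissue genes) to 10899 (90th percentile). S100a6 changed sides of the limit when replicate 1 was left out: its distance ran from -0.98 to 0.24 log2 units as each replicate was left out, and it did not pass. S100a1, S100a8 and S100a9 fell out of the test when the lowest 25% of genes by level were left out, and S100a8 also when probe sets ending in _s_at or _x_at were dropped. With the limit from other-tissue genes the microglia and myeloid count was 0, the oligodendrocyte count 3 and the ependymal count 3. The astrocyte marker count was 11 with that limit. With each gene at the median of its probe sets the microglia and myeloid count was 1 and the oligodendrocyte count 3. The astrocyte marker count was then 10, and that of receptors and binding partners 15. With the limit raised by 1 log2 unit the microglia and myeloid count was 1 and the astrocyte marker count 11. The count of other-tissue genes was 5 with the 90th percentile and 5 without the lowest 25%. The median range of the passing S100 genes over the arrays was 0.24 as reported, 0.24 with quantile normalization and 0.21 with a pseudocount of 16, alternatives chosen after seeing the data. The cause of these changes was not tested. No paired analysis was possible because the study has 1 group.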

Other observations

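EF-hand proteins of the secretory pathway, named after their values were seen, were well above background. The reticulocalbins Rcn1 and Rcn2 were at 10.30 ± 0.27 and 11.95 ± 0.16, Calu, which encodes calumenin, at 10.46 ± 0.23, and Sdf4, of the Golgi, at 10.54 ± 0.03. The mitochondrial EF-hand gene Efhd1 was at 8.71 ± 0.12 and its relative Efhd2 at 9.62 ± 0.22. The centrins Cetn2 and Cetn3, of the centriole, were at 10.24 ± 0.17 and 9.69 ± 0.10. All of these passed (limma), Rcn1 on 1 of 2 probe sets and Sdf4 on 2 of 3. As they were chosen with their values known, that all passed is not a result. Of the 22 measured genes of the same list 7 did not pass, and 58.3% of all genes tested passed.

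Of 27 genes of other tissues, 3 passed (against 58.3% of all genes tested), and 5 had an unadjusted p below 0.05. They were the keratin gene Krt10 at 8.21 ± 0.03, the elastase gene Cela1 at 5.72 ± 0.17 and Alb, which encodes albumin, at 4.96 ± 0.20.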
